A study of Drosophila melanogaster with 16 samples.

Results

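Upon depletion of lamin Dm0, 27 genes stood higher in both Lam-KD libraries than in both control libraries by a fixed margin. They were chosen by their levels in these same 4 RNA-seq libraries. A gene was taken if it had at least 5 CPM in both control libraries and if its smaller Lam-KD value was at least 1.3 times its larger control value. CPM is the deposited estimated count divided by the library's sum and multiplied by 1000000, with no scaling to gene length, so levels of different genes are set side by side only as CPM. The identifier FBgn0015239 was left out by the rule. Of 15050 FlyBase gene identifiers, 6707 had the minimum level, and the 27 genes made up 0.403% of them.

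The study depleted lamin Dm0 in Drosophila melanogaster S2 cells, a macrophage-like line from late embryos, and sequenced poly(A)+ RNA, among other assays. In Lam-KD cells the double-stranded RNA added to the culture targeted lamin Dm0, whereas in control cells it targeted bacterial lacZ. The sample records give 5 days of treatment and the methods of the study give 4 days. Each condition had 2 biological replicates, all from 1 cultured line.

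Lamins are intermediate filament proteins that form a meshwork, the nuclear lamina, under the inner nuclear membrane. In many cells silent chromatin lies against this meshwork, and lamin Dm0 is the B-type lamin of the fly. In RNA interference, double-stranded RNA is cut into short pieces that guide the destruction of a matching mRNA, so a knock-down lowers a gene product without altering the gene itself.

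The genes are listed by FlyBase identifier alone. The RefSeq gene table used here, from Release 6 of the genome, paired 135 of the 15050 identifiers with a symbol and none of the 27, that is 0 of 27, so the raised genes are given by identifier with no name or role. Of 271 symbols in 20 gene lists covering pathways, lamina proteins, stress responses and markers of other cell types, 1 could be paired with an identifier. The lists were therefore void, and the identity of the cells was not checked against markers. The lamin Dm0 gene itself could not be looked up by name, so its RNA level upon knock-down is not given. The study assessed the knock-down by Western blot of lamin Dm0 protein.

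The libraries summed to 16121164 and 16415699 estimated counts upon Lam-KD and to 16607051 and 14727743 in control cells. These sums exceed the number of reads that the study's methods state, so a unit of the deposited values need not be 1 read, while the standard errors and p-values of edgeR and DESeq2 given here treat it as 1. Control replicate 2 stood apart. Over the expressed genes, the SD of the log2 ratio was 0.180 between Lam-KD replicate 1 and control replicate 1, 0.234 between the control replicates and 0.170 between the Lam-KD replicates. Control replicate 1 was thus nearer to a Lam-KD library than to its own replicate. Leaving out a library relaxes the rule, so that more genes must pass and all 27 stay in. The margin was met by 129 genes without control replicate 2 and by 405 without control replicate 1, and by 97 without Lam-KD replicate 1 and 48 without Lam-KD replicate 2. RNA was taken from whole cultures, where more RNA per cell and more cells of an expressing kind cannot be told apart.

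Most raised genes differed modestly. Over the 27, the ratio of the Lam-KD mean to the control mean had a median of 1.53-fold, or 0.61 on the log2 scale, and ranged from 0.42 to 1.59. Over all expressed genes its median was 0.03 on the log2 scale. A ratio of means of at least 1.5 was found in 16 of the 27 and in 34 of all expressed genes, and a ratio of at least 2 in 5 of the 27 and in 7 of all. Since these values chose the genes, they describe the set and carry no test. Both Lam-KD values exceeded both control values in 27.4% of the expressed genes, so it is the margin of 1.3 that singles out the 27, and nothing is read from their not overlapping.

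**Figure D1:**
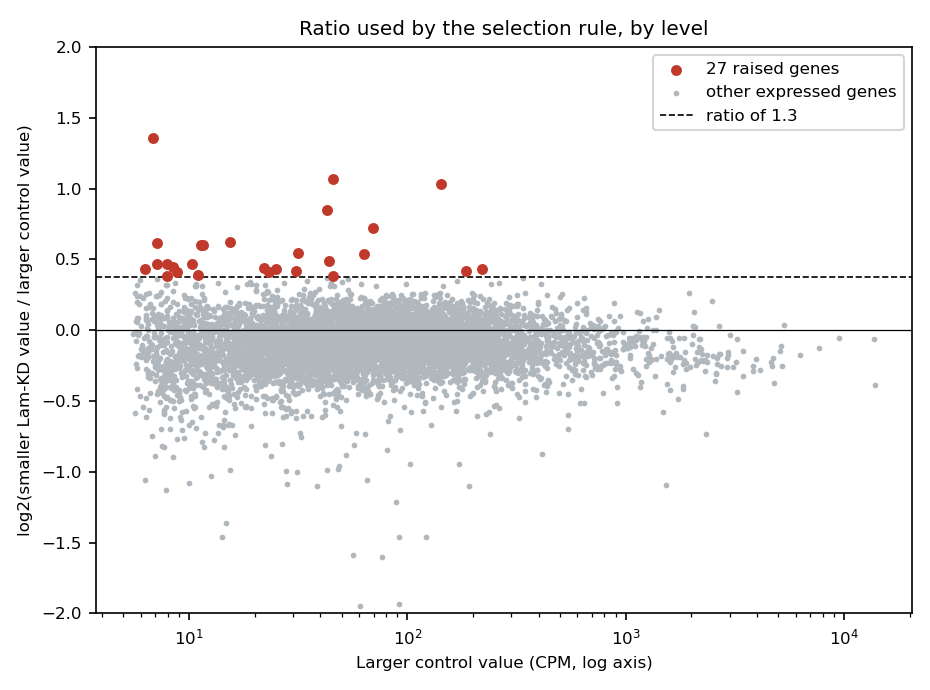
Each point is an expressed gene, with its larger control value in CPM on a log axis and, on the vertical axis, the log2 ratio of its smaller Lam-KD value to that control value. The 27 raised genes (red) lie above the dashed line at a ratio of 1.3, mostly at the left, and 4 other genes beyond the range of -2 to 2 are not shown.

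The gene with the widest margin was also among the lowest in level. FBgn0053926 had 18.9 and 17.6 CPM in the Lam-KD libraries, against 5.24 and 6.86 CPM in the control libraries. Its smaller Lam-KD value was 2.57 times its larger control value, and its means differed 3.01-fold. Its estimated counts were 304 and 289 upon Lam-KD and 87 and 101 in control cells, so it just met the minimum level.

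FBgn0002709 had 97.4 and 95.8 CPM upon Lam-KD, against 45.6 and 43.0 CPM in control cells. The values of each condition lay within 1.1-fold of each other, while the means differed 2.18-fold. All 4 pairings gave a log2 ratio between 1.07 and 1.18.

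FBgn0028490 had the highest CPM of the genes raised at least 2-fold. It had 291 and 319 CPM upon Lam-KD, against 142 and 92.7 CPM in control cells, and its means differed 2.59-fold. Its control replicates differed 1.53-fold, the largest such difference among the 27, and both stayed well under the Lam-KD values. These 3 genes were the only ones of the 27 with a ratio of smaller Lam-KD to larger control value of at least 2.

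The next genes by margin were FBgn0039714 and FBgn0052368. FBgn0039714 had 76.8 and 89.2 CPM upon Lam-KD, against 42.7 and 42.2 CPM in control cells, a difference of 0.97 on the log2 scale. FBgn0052368 had 115 and 116 CPM upon Lam-KD, against 59.9 and 69.7 CPM in control cells, a difference of 0.84. In both genes the pair of libraries with the smallest ratio was still separated by at least 1.65-fold.

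In FBgn0039745 and FBgn0259720, Lam-KD replicate 2 stood well above Lam-KD replicate 1. FBgn0039745 had 23.7 and 54.0 CPM upon Lam-KD, against 11.8 and 15.4 CPM in control cells. Its Lam-KD replicates differed 2.28-fold, so its log2 ratio ran from 0.62 to 2.19 over the 4 pairings of Lam-KD with control libraries. FBgn0259720 had 14.4 and 28.4 CPM upon Lam-KD, against 11.0 and 9.71 CPM in control cells, and its log2 ratio ran from 0.39 to 1.55. In edgeR without Lam-KD replicate 2, the log2 fold change was 0.78 for FBgn0039745 and 0.45 for FBgn0259720, against 1.49 and 1.02 with all 4 libraries.

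**Figure D2:**
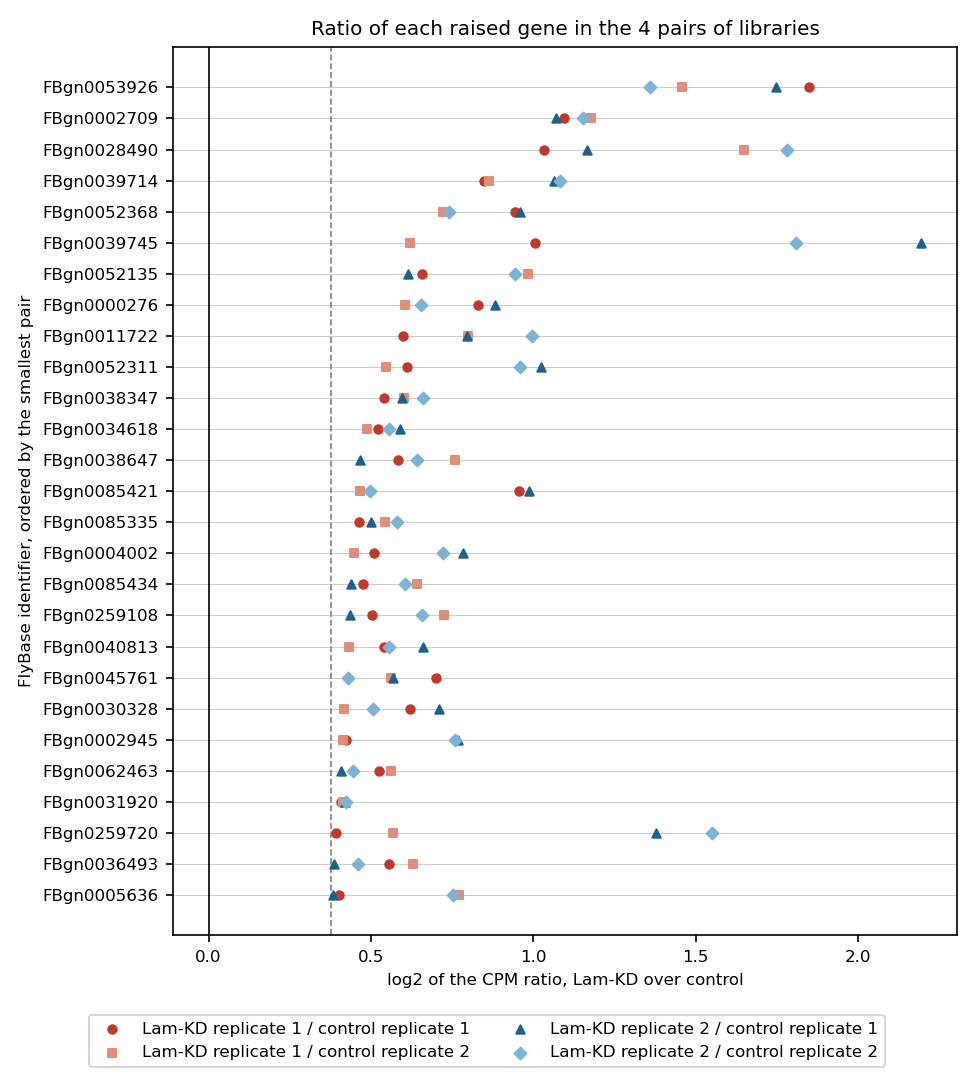
Each row is 1 of the 27 raised genes and each symbol the log2 CPM ratio of 1 Lam-KD library over 1 control library, with the dashed line at a ratio of 1.3. Symbols of most genes lie close together, while the ratios of FBgn0039745 and FBgn0259720 with Lam-KD replicate 2 (blue) lie far to the right of those with Lam-KD replicate 1 (red).

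A group of 3 genes of low level followed. FBgn0052135 had 11.3 and 11.0 CPM upon Lam-KD, against 7.17 and 5.70 CPM in control cells. FBgn0000276 had 17.2 and 17.8 CPM upon Lam-KD, against 9.69 and 11.3 CPM in control cells. FBgn0011722 had 17.6 and 20.2 CPM upon Lam-KD, against 11.6 and 10.1 CPM in control cells. Their log2 ratios of means lay close together, at 0.79, 0.74 and 0.80.

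FBgn0052311, FBgn0038347 and FBgn0034618 were of middle level. FBgn0052311 had 46.0 and 61.2 CPM upon Lam-KD, against 30.1 and 31.5 CPM in control cells. FBgn0038347 had 91.8 and 95.5 CPM upon Lam-KD, against 63.2 and 60.4 CPM in control cells. FBgn0034618 had 61.3 and 64.2 CPM upon Lam-KD, against 42.7 and 43.7 CPM in control cells. The control values of each of these genes lay within 1.1-fold of each other.

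The raised genes with the highest control CPM were FBgn0040813 and FBgn0030328. FBgn0040813 had 298 and 324 CPM upon Lam-KD, against 205 and 221 CPM in control cells, a log2 ratio of 0.55. FBgn0030328 had 248 and 264 CPM upon Lam-KD, against 162 and 186 CPM in control cells, a log2 ratio of 0.56. With FBgn0028490 they made up 48.2% of the summed control CPM of the 27. That sum was 1717 and 1865 CPM upon Lam-KD, against 1048 and 1044 CPM in control cells, or 1.71-fold.

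The set closes with genes near the margin. FBgn0036493 had 67.4 and 59.9 CPM upon Lam-KD, against 45.8 and 43.5 CPM in control cells, and FBgn0005636 had 10.4 and 10.3 CPM, against 7.89 and 6.11 CPM. FBgn0031920 had the smallest log2 ratio of means, at 0.42, with 11.7 and 11.8 CPM upon Lam-KD, against 8.79 and 8.76 CPM in control cells. The other 9 genes, FBgn0038647, FBgn0085421, FBgn0085335, FBgn0004002, FBgn0085434, FBgn0259108, FBgn0045761, FBgn0002945 and FBgn0062463, ranged from 8.47 to 52.3 CPM upon Lam-KD and from 5.36 to 30.9 CPM in control cells. Their ratios of smaller Lam-KD to larger control value lay between 1.33 and 1.38.

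**Figure D3:**
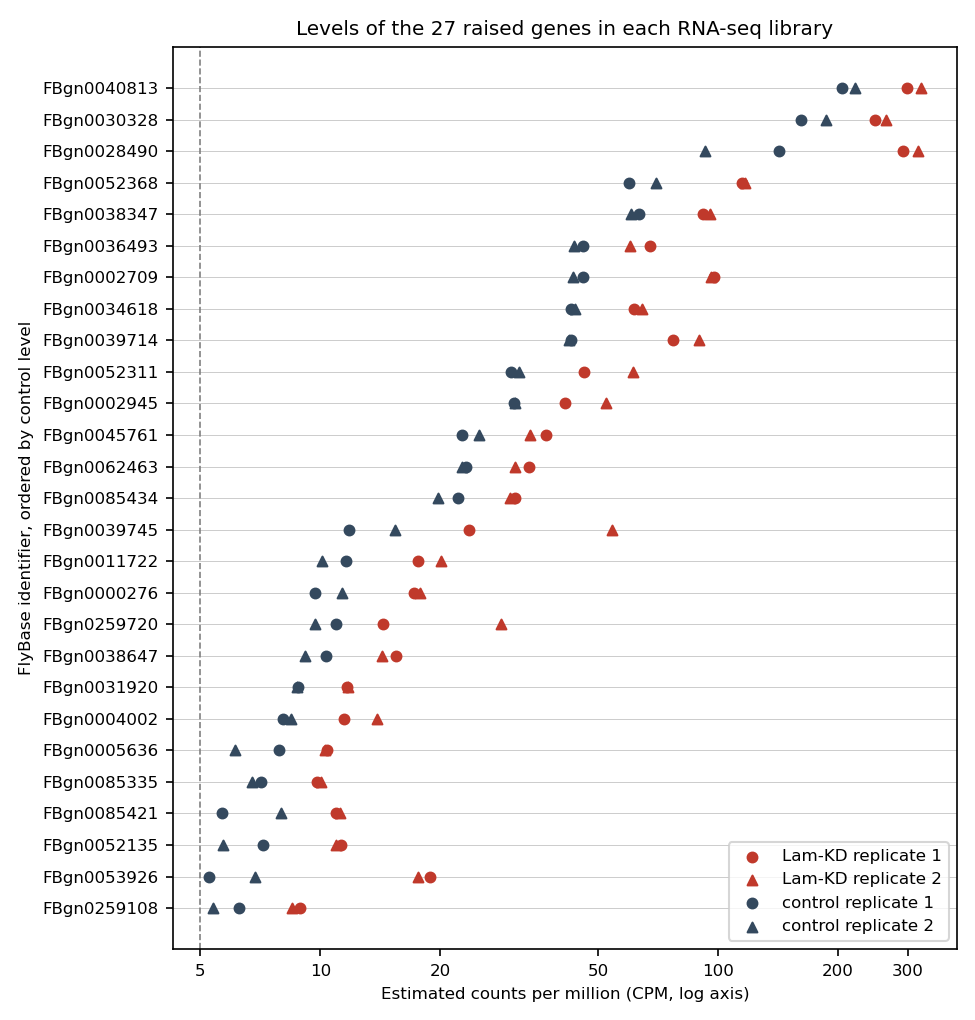
CPM of the 27 raised genes on a log axis, with 1 point per library for the Lam-KD and the control replicates. In every gene both Lam-KD points lie above both control points, as the rule requires, over mean control levels from 5.81 to 212.7 CPM.

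The margin cut through a continuous range of values. Inside it, FBgn0005636 and FBgn0036493 both had a ratio of 1.31. Just outside, FBgn0003891 had 437 and 445 CPM upon Lam-KD, against 338 and 324 CPM in control cells, and FBgn0031258 had 56.3 and 55.6 CPM, against 43.0 and 38.9 CPM, both with a ratio of 1.29. FBgn0051849 had 10.5 and 11.6 CPM upon Lam-KD, against 8.13 and 7.47 CPM in control cells, and FBgn0035977 had 9.18 and 11.9 CPM, against 6.62 and 7.13 CPM. The minimum level also left out a strongly differing gene. FBgn0085208 had 32.8 and 33.4 CPM upon Lam-KD, against 9.82 and 3.87 CPM in control cells, and only control replicate 2 lay under 5 CPM. This gene was singled out after its values were seen.

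The raised genes had lower CPM than expressed genes in general. Their mean control level had a median of 21.0 CPM, against 58.4 CPM over all genes with the minimum, and 22 of the 27 lay below that overall median. None, 0 of 27, was among the 671 genes with the highest control level, which began at 275 CPM. By band of control level, 9 of 429 genes (2.1%) between 5 and 10 CPM were raised, 4 of 736 (0.543%) between 10 and 20 CPM, 9 of 1805 (0.499%) between 20 and 50 CPM, 2 of 1525 (0.131%) between 50 and 100 CPM and 3 of 2211 (0.136%) from 100 CPM. Replicates also differed more in the low bands. The median absolute log2 difference between replicates was 0.169 between 5 and 10 CPM and 0.0862 from 100 CPM, and its part in the number of raised genes was not tested. The lowered genes, taken by the reversed rule with its minimum on the Lam-KD libraries, had a median control level of 31.2 CPM. Their control values must exceed that minimum by the margin, so their levels are not compared with those of the raised genes.

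Replicates of the raised genes lay slightly further apart than those of expressed genes in general, a comparison not matched for level. The raised genes were lower in CPM, where replicates of expressed genes differed more. The median absolute log2 difference was 0.099 between the Lam-KD replicates and 0.165 between the control replicates for the 27, and 0.073 and 0.146 for all expressed genes. In 24 of the 27 the gap between the conditions was wider than the difference between replicates of either condition, as it was, with Lam-KD higher, in 8.05% of the expressed genes. The margin of 1.3 largely fixes this count, and nothing is read from it. The exceptions were FBgn0039745, FBgn0259720 and FBgn0085421. FBgn0085421, singled out here after its values were seen, had 11.0 and 11.2 CPM upon Lam-KD, against 5.66 and 7.94 CPM in control cells. Of the 27, 17 were higher in Lam-KD replicate 2 and 10 in Lam-KD replicate 1. Among all expressed genes, 47.2% were higher in Lam-KD replicate 1, and nothing is read from the count.

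Lam-KD and control libraries were also compared across 8283 genes in edgeR, by its quasi-likelihood test after TMM normalisation. The test uses the same contrast that chose the genes, so its calls describe them and nothing is read from their number. At a Benjamini-Hochberg adjusted p under 0.05, 0.0362% of the genes tested were called higher upon Lam-KD, and of the 27 only FBgn0002709 was, with a log2 fold change of 1.09 and an adjusted p of 0.0288 in edgeR. At an unadjusted p under 0.05, 5.06% of the genes tested were higher, among them 27 of the 27. DESeq2 called 0.278% of the genes higher at an adjusted p under 0.05, including 10 of the 27.

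The 10 genes that DESeq2 called were FBgn0053926, FBgn0002709, FBgn0028490, FBgn0039714, FBgn0052368, FBgn0052311, FBgn0038347, FBgn0034618, FBgn0040813 and FBgn0030328. Standard errors of their log2 fold changes in DESeq2 ran from 0.109 to 0.247, and those of the other 17 from 0.144 to 0.583. The widest belonged to FBgn0039745. The call of FBgn0002709 in edgeR's quasi-likelihood test was lost, with an adjusted p of 0.138, under the expression filter stated in the study. That filter keeps genes at 0 in at most 2 libraries. With edgeR after this filter, the study reported both raised and lowered genes. Which edgeR test it used is not stated, so the lost call is not a result of the study.

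The number of raised genes was set against the numbers that the same rule gives for other arrangements of the 4 libraries. Reversed, with control over Lam-KD, it found 11 genes, whose median log2 ratio was -0.64. Exchanging 1 Lam-KD and 1 control library gave 9 genes for Lam-KD replicate 1 with control replicate 1 over the remaining libraries, and 7 in the opposite direction. The other exchange, Lam-KD replicate 1 with control replicate 2 over the remaining libraries, gave 2 genes in each direction. With library sums as the scaling, the labelled arrangement thus gave the highest count of the 6, 27 or 0.403% of the genes with the minimum. The reversed one gave 0.162% and the exchanged ones gave 0.0297% to 0.134%. These are counts without a test, and no counts of the exchanged arrangements under another scaling are given.

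**Figure D4:**
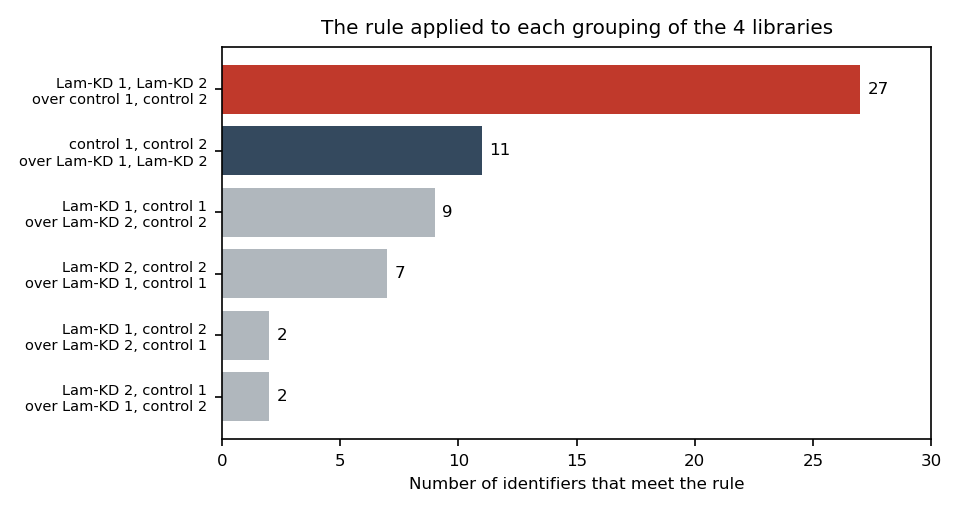
Number of genes that meet the selection rule with the libraries as labelled, with the direction reversed and with 1 Lam-KD and 1 control library exchanged. The labelled arrangement gives 27 raised genes, against 11 with the direction reversed and 2 to 9 in the exchanged arrangements.

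The excess of raised over lowered genes depended on the scaling between libraries. With library sums 27 genes were raised and 11 lowered, so that 71.1% were raised. With TMM factors or with DESeq2's size factors, 22 were raised and 17 lowered, or 56.4% raised. All 22 were among the 27. The 5 genes that no longer met the margin were FBgn0062463, FBgn0031920, FBgn0259720, FBgn0036493 and FBgn0005636, whose ratios with TMM factors lay below 1.3, the lowest being 1.27 in FBgn0005636.

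The share of expressed identifiers that were raised differed between blocks of FlyBase numbers. There were 6 raised among 1192 below FBgn0020000 (0.503%), 1 among 994 from FBgn0020000 to FBgn0029999 (0.101%) and 8 among 3489 from FBgn0030000 to FBgn0039999 (0.229%). In the higher blocks there were 2 among 247 from FBgn0040000 to FBgn0049999 (0.81%), 4 among 432 from FBgn0050000 to FBgn0059999 (0.926%), 4 among 232 from FBgn0060000 to FBgn0249999 (1.72%) and 2 among 120 from FBgn0250000 (1.67%). The shares were thus higher from FBgn0040000 on, on counts of 2 to 4 genes a block and with no test. In those blocks 18.4% to 35.0% of the identifiers had the minimum level, against 49.4% to 63.8% in the blocks before. The blocks were not matched for level, and the part of level in the shares was not tested. FlyBase numbers were used here only as labels, and no position or function was read from them. The tables also hold 85 rows named by transcript and 14 by assembled locus, of which 8 had the minimum level and 0 met the margin in either direction.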

How the data were processed

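Poly(A)+ RNA from 2 Lam-KD and 2 control cultures was analysed. For each library the authors mapped reads to dm3 with HISAT2 2.1.0, filtered them by quality with SAMtools, quantified genes with StringTie and deposited estimated counts, whole numbers not scaled to depth. The sums exceed the reads the study states and a value of 1 is rarer than 2 or 3 in each library, so a unit need not be 1 read. No counting interval is given, and the count models were run on values that may not be read counts. CPM used the sum of all 15149 rows. Rows without a FlyBase gene identifier, at most 0.0329% of the counts, were left out of the tests.

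The rule uses all 4 pairs of libraries. Its members and the gene lists were chosen with earlier results of these data known. edgeR 4.0.16 (TMM, filterByExpr, quasi-likelihood test, Benjamini-Hochberg adjusted p under 0.05) was the main test and DESeq2 1.42.0 an alternative, in R 4.3.3. Both were also run on simulated counts with a fixed dispersion. That simulation held neither an uncertain unit nor a library that stood apart, so nothing is read from it about these data. Genes described singly were, by a fixed rule, the 12 with the widest margin, the 8 highest in control CPM, the 4 just inside and the 4 just outside the margin, and any called by edgeR. Other genes were named after their values were seen. Other alternatives were the minimum level, the margin, the scaling, the edgeR exact test, the filter, a replicate block and leaving out each library. Tables were handled with Python 3.11.15, numpy 2.4.6 and pandas 2.3.3, and plots drawn with matplotlib 3.10.9. ChIP-seq and Hi-C files were not used here, since gene positions on dm3 were not at hand, and no gene sequences were used.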

Additional observations from a re-analysis of the deposited data

How the results depend on the processing

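The number of raised genes was 59 with a minimum of 1 CPM, 16 with 10 CPM and 233 with none, and 75, 9 and 3 with ratios of at least 1.2, 1.5 and 2. Leaving out 1 library gave 48 to 405 genes: 97 without Lam-KD replicate 1, 48 without Lam-KD replicate 2, 405 without control replicate 1 and 129 without control replicate 2. All 27 stay in by construction. The median log2 ratio of the 27 was 0.59 to 0.72 when 1 library was left out, the highest without Lam-KD replicate 1, and 0.58 with TMM factors or DESeq2's size factors.

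Genes called higher upon Lam-KD by edgeR's quasi-likelihood test numbered 3, of which 1 was among the 27. DESeq2 gave 23 and 10, the edgeR exact test 45 and 15, and library sums in place of TMM factors 7 and 3. The filter that keeps genes at 0 in at most 2 libraries gave 0 and 0 with edgeR, although 527 genes, the 27 included, were higher at an unadjusted p under 0.05. Leaving out 1 library gave 12 to 541 and 3 to 18, the highest of both without control replicate 1, where the lone control library was assumed to vary like the Lam-KD libraries. A replicate block gave 31 and 13. Same-numbered libraries are not stated to share a culture or day, and their deviations from the condition means correlated at 0.08.

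Over 180 alternatives for 18 genes described singly, 0 reversed direction, 62 gained the call and 1, FBgn0002709, lost it. The causes were not tested. The smallest estimated count of a raised gene was 139 upon Lam-KD and 79 in control cells, and how many reads stand behind such a value is unknown. Promoter motifs were not run.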
